A study of Mus musculus with 8 samples.

Results

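Endothelial nuclei of the mouse optic nerve (ON) are described here from single-nucleus RNA counts. A nucleus was a droplet barcode with at least 1000 unique molecular identifiers (UMIs, the tags by which transcripts are counted) of which under 5% came from mitochondrial genes. Endothelial nuclei were chosen by the UMIs of 13 genes: a nucleus was taken when at least 3 of the 6 genes *Cldn5*, *Vwf*, *Flt1*, *Pecam1*, *Cdh5* and *Ptprb* were detected, *St18*, an oligodendrocyte (OL) gene, had fewer than 3 UMIs, and at most 2 of the 6 mural genes *Pdgfrb*, *Rgs5*, *Abcc9*, *Notch3*, *Kcnj8* and *Myh11* were detected. This rule gave 364 endothelial nuclei of 40845 nuclei (0.891%), 157 in control libraries and 207 in libraries labelled cKO.

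The control libraries came from *Piezo2f/f* mice (replicates 1 to 4) and the libraries labelled cKO from *Olig2-cre;Piezo2f/f* mice (replicates 10 to 13). Both groups carry the floxed *Piezo2* alleles. In the second group Cre is expressed from the *Olig2* locus, so that these mice are also heterozygous for *Olig2*, and recombination is directed to the oligodendrocyte lineage rather than to endothelium. All mice were female, 120 days old and on a C57BL/6J background, and each library pooled 6 ONs of 3 mice, so that the spread between libraries is a spread between pools.

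The targeted gene was checked first. In nuclei with at least 3 *St18* UMIs, the oligodendrocyte class, *Piezo2* stood at 379 ± 49.9 CPM (the usual scaling of a gene's UMIs to all UMIs of the summed nuclei) in the control libraries and at 477 ± 20.3 CPM in the libraries labelled cKO (SD, n = 4 each; p = 0.0286 in a two-sided exact permutation test, which cannot go lower with 4 against 4 libraries). The count covers the whole gene and does not separate the floxed exons from the rest, so it does not check the deletion. *Olig2* stood at 30.1 ± 4.89 CPM and 47.2 ± 5.74 CPM in the same nuclei (exact permutation p = 0.0286). The second group is therefore called the libraries labelled cKO throughout.

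Endothelial cells line the blood vessels. In the central nervous system, the ON included, they form the blood-brain barrier: tight junctions seal the gaps between them, carriers of the solute carrier family bring nutrients across, and efflux pumps return foreign compounds to the blood. This state is kept up by canonical Wnt signalling, through which ligands of the surrounding tissue act on the receptor Fzd4 and on transcription factors of the Lef and Tcf family. Along the vascular tree, arterial, capillary and venous endothelial cells differ in gene expression. Endothelial cells also sense flow, and Piezo1 is a mechanically gated ion channel through which they do so.

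The rule was set on measured genes, so the rule genes are given only as a description. *Flt1*, a receptor for VEGF, was detected in 90.4% of the endothelial nuclei, *Ptprb*, the vascular endothelial phosphatase, in 84.9%, *Cldn5*, the main tight junction claudin of brain endothelium, in 83.8%, *Vwf*, the clotting protein of the Weibel-Palade body, in 64.6%, *Pecam1* in 59.6%, and *Cdh5*, VE-cadherin, in 51.9%. Of 632 nuclei with at least 3 of these genes, 188 were left out because of *St18* and 80 because of the mural genes. Just inside the threshold were 102 nuclei with 3 of the 6 genes, which held a median of 1656.5 UMIs and a median of 6 of 24 other pan-endothelial genes. Just outside were 483 nuclei with 2 of the 6 genes, which held a median of 4616 UMIs and 1 of the 24 genes. Of these 483 nuclei, 67.7% carried at least 3 of the 6 fibroblast genes *Dcn*, *Lum*, *Col1a2*, *Ranbp3l*, *Adamtsl3* and *Slc6a13*. The same held for 30.4% of the 102 nuclei just inside, and for 14.3%, 18.4% and 16.7% of those with 4, 5 and 6 rule genes. Over all 364 nuclei the median was 2436 UMIs and 10 of the 24 genes, and 42 nuclei had fewer than 4 of them.

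RNA of other cells was also present in these nuclei. At least 3 of 6 marker genes of another cell type were detected in 130 of the 364 nuclei. The types were astrocytes (76 nuclei), fibroblasts (74), myeloid cells (20) and oligodendrocyte precursor cells (OPCs, 18), and a nucleus could count under several. No doublet caller was run, and 34 nuclei had more than 3 times the median UMIs of the endothelial nuclei of their library. The 204 nuclei without another type's markers and without a single *St18* UMI are called the strict set, and its counts are given beside those of all 364 where they differ for a list of endothelial genes. The estimated share of free RNA in the summed endothelial counts was 11.8% to 40.5% per library from barcodes of 10 to 100 UMIs and 10.2% to 33.2% from barcodes of 100 to 400 UMIs. Where free RNA was subtracted, it was taken from the endothelial sums only. The sums of the other nuclei were left as they were, so a gene abundant in free RNA falls in that comparison by construction. The median mitochondrial share was 0.726% to 1.42% in endothelial and 0.561% to 0.806% in other nuclei, higher in endothelial nuclei in 8 of 8 libraries, and its part in the comparison with other nuclei was not tested. Control replicate 3 held RNA of pituitary hormone genes, with 2651 CPM over 5 genes in its endothelial nuclei against 149 to 271 CPM in the other control libraries and 9.64 to 95.8 CPM in the libraries labelled cKO. Pairs of libraries shared 3 to 14 nucleus barcodes, and no barcode was an endothelial nucleus in more than 1 library.

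The endothelial share of each library ranged from 0.596% to 1.44%, and the libraries of the groups overlapped. Of all nuclei, endothelial nuclei were 0.633% in control replicate 1 (37 of 5846, 95% exact binomial interval 0.446% to 0.871%), 0.792% in replicate 2 (31 of 3913, 0.539% to 1.12%), 1.44% in replicate 3 (67 of 4650, 1.12% to 1.83%) and 0.596% in replicate 4 (22 of 3691, 0.374% to 0.901%). In the libraries labelled cKO they were 0.713% in replicate 10 (34 of 4769, 0.494% to 0.995%), 0.813% in replicate 11 (57 of 7014, 0.616% to 1.05%), 0.649% in replicate 12 (28 of 4316, 0.432% to 0.936%) and 1.32% in replicate 13 (88 of 6646, 1.06% to 1.63%). Each group thus had 3 libraries under 1% and 1 library above it. The means were 0.866% ± 0.393 and 0.875% ± 0.307 (SD, n = 4 each), a difference of 0.0091 percentage points (exact permutation test, two-sided, p = 0.914). The intervals cover counting error only, and a share of nuclei depends on how well each cell type survives isolation.

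**Figure D1:**
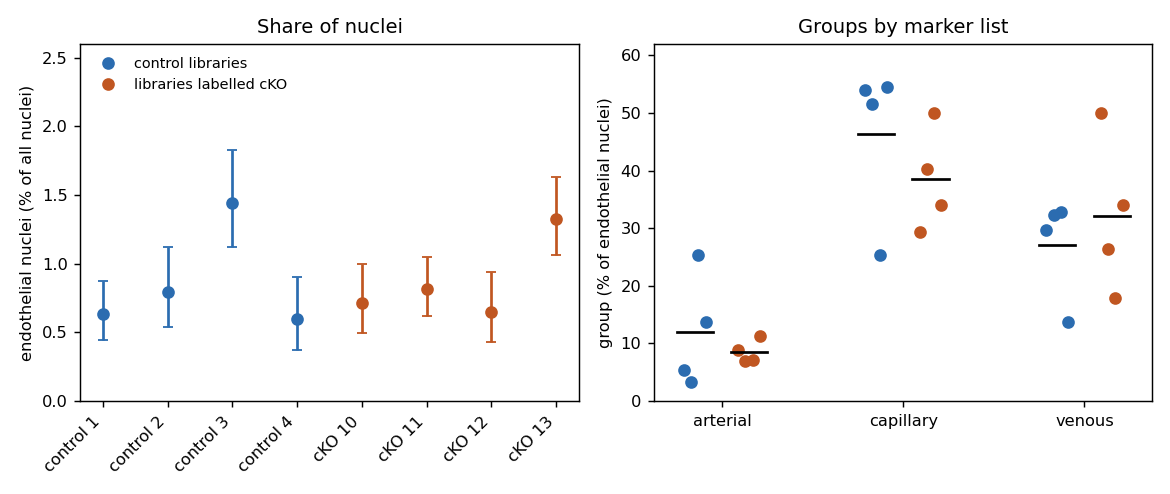
Left, endothelial nuclei as a percent of all nuclei in each library, with 95% exact binomial intervals. Right, the percent of endothelial nuclei in the arterial, capillary and venous groups, 1 point per library with the group mean as a line. Control replicate 3 (1.44%) and cKO replicate 13 (1.32%) have the highest shares, and the points of the 2 groups overlap in every panel.

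The next comparison set the summed counts of the endothelial nuclei against those of all other nuclei of the same library, with the library as a block (edgeR's quasi-likelihood test, Benjamini-Hochberg adjustment over all genes). Calls needed an adjusted p below 0.05 together with a log2 difference beyond 0.5 in either direction. Of 18763 genes tested, 2205 (11.8%) were higher and 3563 (19.0%) lower in endothelial nuclei, with a median log2 difference of -0.23 over all genes. The balance of the directions differed between settings. With the RLE scaling alone 2458 were higher and 3067 lower, with a median shift of 0.08. DESeq2, which also tested more genes (28993), gave 2545 and 2389 with a shift of 0.75. The strict set gave 1515 higher and 4546 lower of 18117 genes tested, beside which its counts per list are to be read.

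All 24 pan-endothelial genes outside the rule were higher in endothelial nuclei, with a median log2 difference of 5.40, and all 24 were also called in the strict set and after free RNA was subtracted. *Tek*, the angiopoietin receptor Tie2 (GRCm39 chr4:94627291-94763224), ranged from 222 to 399 CPM with a median of 302 CPM over the 8 libraries, against 5.44 to 10.2 CPM in the other nuclei. The ranges lay far apart, with a log2 difference of 5.24 ± 0.17 (SE, adjusted p = 3.2e-27). *Mecom*, a zinc finger transcription factor (chr3:30005439-30602157), ranged from 1256 to 2260 CPM around a median of 1669 CPM, against 11.0 to 37.2 CPM elsewhere (log2 difference 6.46 ± 0.21, adjusted p = 6.1e-27). Further members were the adhesion GPCRs *Adgrl4* (6.51 ± 0.21) and *Adgrf5* (5.91 ± 0.19), the secreted factor *Egfl7* (6.01 ± 0.20), *Cyyr1* (6.25 ± 0.21) and the ETS factor *Erg* (6.11 ± 0.27), all as log2 differences with SE. The smallest difference of the list was that of the ETS factor *Ets1* (2.73 ± 0.17).

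Many endothelial enhancers and promoters bind factors of the ETS family, such as Erg, Fli1 and Ets1, and promoters were therefore read for the heptamer CAGGAAG, which contains the GGAA core of that family, on both strands (CTTCCTG on the other). The promoters are those of RefSeq on GRCm38.p6, 300 bases each, from 250 before to 50 after a transcript start. Of 16 pan-endothelial genes with a promoter in the RefSeq table, 8 (50.0%) held the heptamer in at least 1 promoter, against 14.8% of all 27025 genes and 13.3% of all 32851 promoters. Among the 20 genes with the smallest adjusted p against other nuclei, 17 had a promoter and 4 (23.5%) held it. The heptamer AACAAAG, the core of a Lef and Tcf site, was held by 1 of the 16 genes and 2 of the 17, against 6.68% of all genes. A match is a run of letters and not a site. The promoters of *Egfl7* (chr2:26580833-26581132, plus strand), which was the single one of 9 with 2 matches, of *Erg* (chr16:95459299-95459598, minus strand) and of *Lef1* (chr3:131156044-131156343, plus strand) are shown with the heptamer in capitals, 5′ to 3′ along the gene.
Egfl7: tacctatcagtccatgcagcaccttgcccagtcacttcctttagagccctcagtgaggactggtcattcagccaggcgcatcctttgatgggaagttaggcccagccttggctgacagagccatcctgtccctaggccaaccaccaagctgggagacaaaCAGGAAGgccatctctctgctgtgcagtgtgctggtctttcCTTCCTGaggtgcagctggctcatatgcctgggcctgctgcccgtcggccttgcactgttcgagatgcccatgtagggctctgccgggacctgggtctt
Erg: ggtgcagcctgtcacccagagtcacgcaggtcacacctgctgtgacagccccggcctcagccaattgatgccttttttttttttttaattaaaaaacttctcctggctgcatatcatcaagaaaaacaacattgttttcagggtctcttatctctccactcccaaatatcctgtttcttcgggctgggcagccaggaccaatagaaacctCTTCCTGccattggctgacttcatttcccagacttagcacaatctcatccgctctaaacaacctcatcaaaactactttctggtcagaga
Lef1: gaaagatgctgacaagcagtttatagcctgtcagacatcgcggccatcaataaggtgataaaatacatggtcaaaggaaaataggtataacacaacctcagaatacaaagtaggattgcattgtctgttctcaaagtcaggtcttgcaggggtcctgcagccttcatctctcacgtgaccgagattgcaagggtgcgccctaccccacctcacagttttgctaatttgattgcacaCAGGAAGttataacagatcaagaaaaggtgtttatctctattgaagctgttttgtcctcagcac

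The 20 genes named by rank were picked for the smallest adjusted p among those called higher in every library, outside the rule genes, and several have known roles in brain vessels. *Slco1a4*, an organic anion transporter of the barrier (chr6:141751165-141802036), ranged from 814 to 2488 CPM with a median of 1656 CPM, against 15.3 to 41.1 CPM in other nuclei (log2 difference 5.75 ± 0.21, adjusted p = 1.1e-25). Its lowest values were those of control replicates 3 and 4, with 814 and 1085 CPM. *Slco1c1*, the thyroxine transporter, ranged from 151 to 785 CPM against 5.03 to 14.4 CPM (5.34 ± 0.21). The log2 differences were 5.56 ± 0.19 for *Ly6c1* and 5.55 ± 0.22 for *Ly6a*, both surface proteins of the Ly6 family, and 5.05 ± 0.20 for the interleukin-1 receptor *Il1r1*. They were 5.79 ± 0.21 for *Fgd5*, 6.01 ± 0.23 for the zinc finger gene *Zfp366*, 4.92 ± 0.19 for *Kank3*, 6.91 ± 0.29 for *Cd200l1*, 4.34 ± 0.19 for the semaphorin *Sema3c*, 5.18 ± 0.23 for *Nostrin*, which acts in the trafficking of nitric oxide synthase, 3.79 ± 0.16 for the transcription factor *Ebf1* and 3.89 ± 0.17 for the ceramidase *Acer2*. *Cd200l1* has near-identical relatives in its family, so the split of its reads between them is uncertain, as it is for the Ly6 genes.

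Carriers of the blood-brain barrier were higher in 18 of 20 cases (median log2 difference 2.28), and 16 of 20 in the strict set. *Slc2a1*, the glucose transporter Glut1, ranged from 300 to 940 CPM around a median of 537 CPM, against 34.7 to 51.0 CPM in the other nuclei (log2 difference 3.33 ± 0.17, adjusted p = 1.9e-20). *Abcb1a*, the efflux pump P-glycoprotein, ranged from 456 to 836 CPM against 30.9 to 65.9 CPM (3.55 ± 0.17, adjusted p = 1.5e-21). The lowest endothelial library was well above the highest of the rest for both. *Abcg2*, the other main efflux pump, differed by 3.18 ± 0.16, *Slc7a5*, the large neutral amino acid transporter, by 4.08 ± 0.18, *Slc19a3*, a thiamine transporter, by 5.91 ± 0.39, and *Mfsd2a*, the carrier of docosahexaenoic acid, by 1.97 ± 0.42 with 29 UMIs in all. The monocarboxylate transporters *Slc16a1* (0.36 ± 0.16, adjusted p = 0.080) and *Slc16a4* (0.18 ± 0.18, adjusted p = 0.47) did not pass.

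Of 14 junction genes, 9 were higher and none was lower (median 1.45), as in the strict set. *Ocln*, the tight junction protein occludin, differed by 3.72 ± 0.19, *Lsr*, of tricellular contacts, by 3.15 ± 0.23, *Cgnl1* by 2.14 ± 0.16 and *Tjp1*, the scaffold ZO-1, by 0.99 ± 0.13. *Pard3*, *Ctnnd1* and *Magi1*, which glia use as well, lay between -0.32 and 0.39 and were not called. *Cgn* had 0 UMIs in the 364 nuclei and was not called.

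Of 16 genes of canonical Wnt signalling, 14 were higher (median 1.70), and 12 in the strict set. *Lef1*, a transcription factor of the pathway (chr3:130903919-131018005), ranged from 358 to 921 CPM around 726 CPM, against 5.86 to 18.9 CPM (log2 difference 6.06 ± 0.21, adjusted p = 9.5e-26). *Sox17* (5.97 ± 0.32) and *Foxq1* (5.31 ± 0.34), transcription factors of brain endothelium, followed. The receptors *Fzd6* (3.14 ± 0.17) and *Fzd4* (3.06 ± 0.35) were higher, as were the target *Apcdd1* (2.40 ± 0.19) and the coreceptor component *Adgra2* (1.69 ± 0.18). *Axin2* (0.50 ± 0.24, adjusted p = 0.10) and *Nkd1* (-0.04 ± 0.22, adjusted p = 0.92), which are targets in many cell types, did not pass.

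Receptors and ligands of the vessels went in both directions in the list of VEGF and angiopoietin genes, with 7 of 10 higher and 2 lower. The receptors *Tie1* (6.18 ± 0.33), *Flt4* (5.38 ± 0.41) and *Kdr* (3.62 ± 0.30) and the ligand *Vegfc* (4.03 ± 0.26) were higher. The ligands *Vegfa* (-1.10 ± 0.27) and *Angpt1* (-1.01 ± 0.23), made by cells around the vessels, were lower. In the strict set 6 were higher and 2 lower. Of 12 Notch genes 9 were higher and none lower (9 and 2 in the strict set), with *Dll4* (6.13 ± 0.40), *Notch4* (3.73 ± 0.35) and *Jag2* (3.16 ± 0.33) in front, while *Rbpj*, *Hey2* and *Heyl* were not called. Among all genes of the strict set 4546 of 18117 were lower.

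The lists of TGF-beta and BMP, basement membrane, caveolae and leukocyte adhesion genes were also mostly higher. In the list of TGF-beta and BMP genes 9 of 12 were higher (8 in the strict set), among them the receptors *Acvrl1* (4.43 ± 0.23) and *Eng* (3.67 ± 0.18) and the target *Id1* (2.49 ± 0.16), and *Smad7* was lower (-0.76 ± 0.16). Basement membrane genes and their receptors were higher in 11 of 13 cases (median 1.35), against 8 higher and 1 lower in the strict set and 9 higher after free RNA was subtracted, with *Itga1* (3.15 ± 0.17) and the collagens *Col4a1* (2.54 ± 0.16) and *Col4a2* (2.07 ± 0.19). Of 9 genes of caveolae and endocytosis 7 were higher (7 higher and 2 lower in the strict set), with *Cav1* at 2.86 ± 0.20. Against mural nuclei, which also make basement membrane, none of 9 tested basement membrane genes was higher and 4 were lower, beside 7.34% and 6.70% of all genes in that comparison. Of 19 genes of leukocyte adhesion and inflammation 18 were tested and 15 were higher (12 higher and 1 lower of 17 in the strict set), with *Icam2* (5.41 ± 0.34), *Vcam1* (2.85 ± 0.21), *B2m* (1.47 ± 0.14) and *H2-K1* (1.66 ± 0.16). *B2m* stood at 499 ± 175 CPM in endothelial nuclei and at 655 CPM in barcodes of 100 to 400 UMIs, which hold mostly free RNA, and the part of free RNA in its level was not tested for this gene alone. Classical MHC genes such as *H2-K1* and *H2-D1* are near-identical, so their counts are uncertain.

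**Figure D2:**
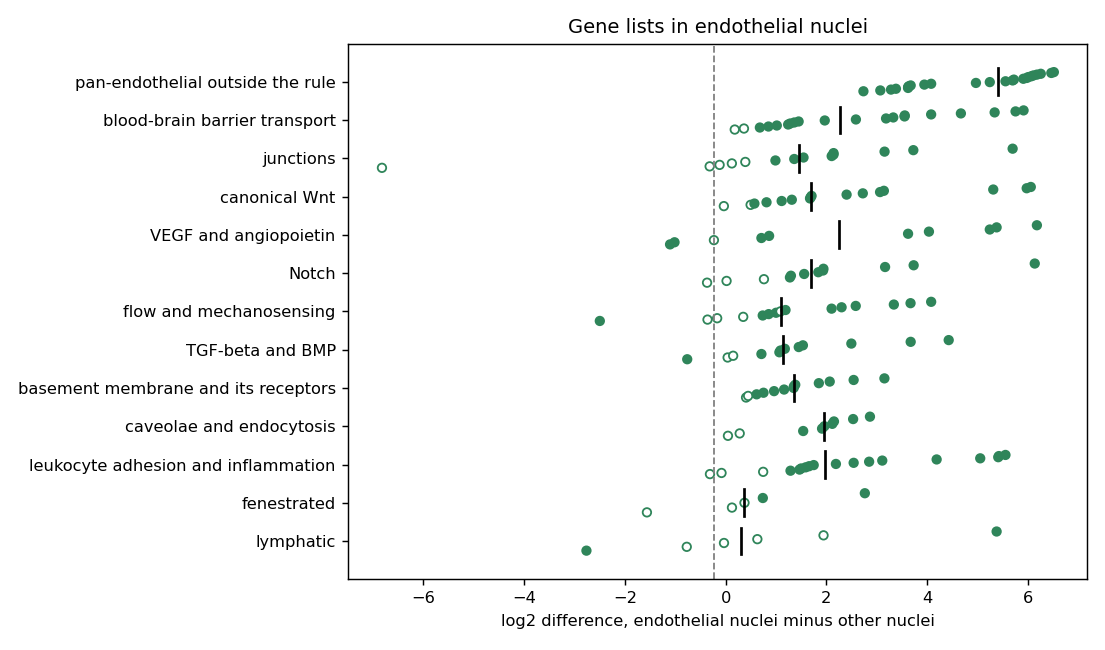
Log2 differences between endothelial and other nuclei for the tested genes of each list. Filled points were called, open points were not, short lines are list medians and the dashed line is the median of all genes (-0.23). The pan-endothelial list has its median at 5.40, and the lists for fenestrated and lymphatic endothelium have theirs at 0.37 and 0.30.

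*Plvap*, the diaphragm protein of fenestrated endothelium, had 2 UMIs in 2 of 364 nuclei (0.549%, 95% exact interval 0.0666% to 1.97%), below the 1.31% of astrocyte nuclei that carried one. This interval covers counting error only, over nuclei pooled from all libraries. Of the 6 genes for fenestrated endothelium 5 were tested and 2 were higher, *Exoc3l2*, with 6 UMIs in all from 2 of 8 libraries and a median of 0 CPM, and *Plpp1*, a lipid phosphatase of many cell types (0.74 ± 0.21). Of 7 lymphatic genes, *Flt4* was higher, *Prox1*, the transcription factor of lymphatic endothelium that OLs and astrocytes also express, was lower (-2.76 ± 0.22), *Lyve1* had 9 UMIs and *Ccl21a* none. A *Flt4* UMI was found in 33 and a *Prox1* UMI in 32 of the 364 nuclei, and 21 nuclei carried at least 2 of the lymphatic genes. In the strict set 5 lymphatic genes were tested, with 1 higher and 2 lower.

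Lists of other cell types showed what else the endothelial sums held. All 6 OL genes were lower (median -2.26), where the rule itself caps *St18*, and 4 of 6 astrocyte, 4 of 6 myeloid and 4 of 6 OPC genes were lower (6, 5 and 5 in the strict set, which leaves out nuclei that pass these gates). Fibroblast genes were higher in 5 of 6 cases (median 1.09) among all 364 nuclei. In the strict set, which leaves out nuclei with 3 such genes, none was higher and 4 of 6 were lower (median -1.67). Hemoglobin and related genes of erythrocytes were higher in 4 of 5 cases (median 0.68), in none of 5 in the strict set, and in none of 5 after free RNA was subtracted, where the direction turned (median -0.55). Of 6 mural genes outside the rule 3 were higher (median 0.74), with 2 higher and 1 lower in the strict set and 1 higher after free RNA was subtracted. Of 5 pituitary genes 2 were higher, and 1 after subtraction. As a description, since the rule counts it, the pericyte gene *Rgs5* stood at 218 ± 78.6 CPM (SD, n = 8).

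*Piezo1* was higher in endothelial nuclei than in the other nuclei of every library. Its endothelial level (chr8:123208437-123278072) was 81.5, 103, 53.3 and 150 CPM in the control libraries, replicates 1 to 4, with 133, 100, 67.5 and 102 CPM in the libraries labelled cKO, replicates 10 to 13. Every library was above the 6.83 to 10.8 CPM of the other nuclei, and the log2 difference was 3.34 ± 0.24 (adjusted p = 2.2e-15, higher in 8 of 8 libraries). This gene was singled out with earlier results of these data known, so its test is not independent evidence. A *Piezo1* UMI was found in 25% of endothelial nuclei (95% exact interval 20.6% to 29.8%), and in 11.5% after each nucleus was thinned to 1000 UMIs. The interval pools nuclei over the libraries and leaves out the spread between them. After thinning the share was 0.389% in astrocyte nuclei and 0.227% in OL nuclei, against 1.36% and 1.58% before it. The barcodes of mostly free RNA had 3.5 CPM.

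By class, the levels of *Piezo1* were 98.7 ± 32 CPM in endothelial nuclei, 70.1 ± 17.3 CPM in myeloid nuclei, 59.6 ± 75.6 CPM in mural nuclei, 20.4 ± 5.33 CPM in fibroblast nuclei, 6.46 ± 4.56 CPM in OPC nuclei, 4.65 ± 1.61 CPM in astrocyte nuclei and 4.54 ± 1.37 CPM in OL nuclei (SD, n = 8 libraries). The ranges of endothelial (53.3 to 150 CPM) and myeloid nuclei (51.0 to 98.0 CPM) overlapped, as did those of both with the mural nuclei, which rest on 13 UMIs. Without cKO replicate 12, which had 3 mural nuclei and 236 CPM, the mural mean was 34.4 ± 27.0 CPM. Endothelial and fibroblast ranges (10.1 to 27.9 CPM) did not overlap, with a log2 difference of 2.20 ± 0.22 in the fit against fibroblast nuclei. OPC, astrocyte and OL nuclei did not differ beyond their spread.

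*Piezo2*, the targeted gene, was lower in endothelial nuclei than in all other nuclei together, among which OL nuclei were the largest class. It had 20.4, 56.0, 107 and 104 CPM in the endothelial nuclei of control replicates 1 to 4 and 47.5, 12.5, 67.5 and 91.2 CPM in cKO replicates 10 to 13, against 248 to 360 CPM in the other nuclei (log2 difference -2.50 ± 0.22, adjusted p = 1.5e-12, lower in all 8 libraries). The mean of 63.2 ± 35.9 CPM was close to the 58.9 CPM of the barcodes of mostly free RNA. By class, *Piezo2* stood at 428 ± 63.0 CPM in OL and 231 ± 48.7 CPM in fibroblast nuclei, whose ranges lay above the endothelial one. OPC (65.6 ± 87.3 CPM), astrocyte (46.5 ± 9.84 CPM), mural (32.7 ± 42.9 CPM) and myeloid nuclei (31.8 ± 16.7 CPM) had ranges that overlapped it (SD, 8 libraries). *Olig2* had 22 UMIs in all endothelial nuclei and was lower there (-1.30 ± 0.32), a call that was lost in the control libraries alone (-0.81, adjusted p = 0.287).

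**Figure D3:**
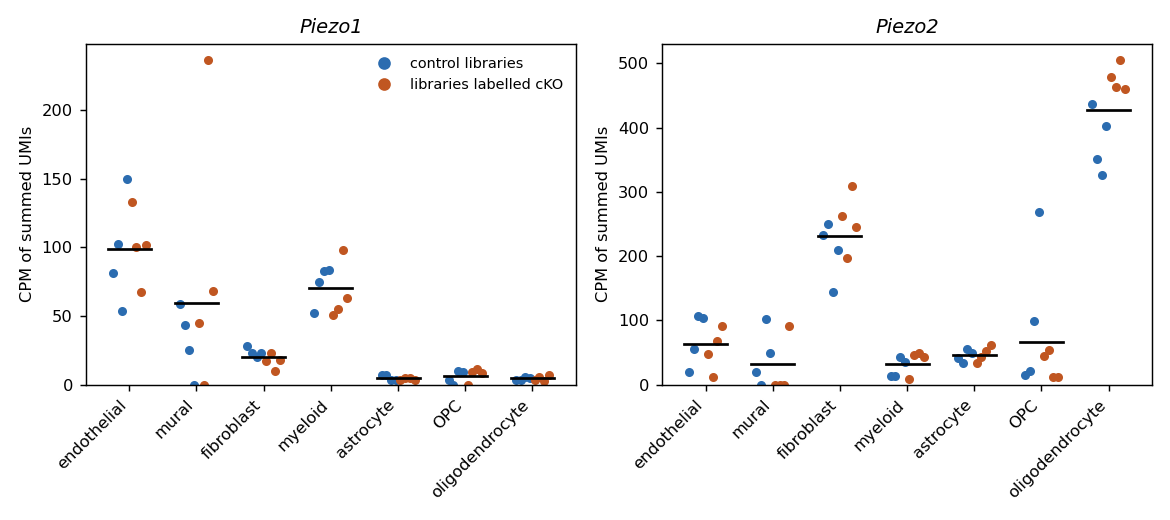
*Piezo1* (left) and *Piezo2* (right) in CPM of the UMIs summed per library and class of nuclei. Points are libraries and lines are means over 8 libraries. *Piezo1* is highest on average in endothelial nuclei (98.7 CPM), and *Piezo2* in OL nuclei (428 CPM) and fibroblast nuclei (231 CPM).

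Other genes of the flow list, 10 of 15 of which were higher (9 higher and 2 lower in the strict set), included transcription factors, receptors and channels. *Klf2*, a transcription factor induced by laminar flow, had 537, 579, 379 and 57.7 CPM in the control libraries and 703, 329, 405 and 663 CPM in cKO replicates 10 to 13 (log2 difference from other nuclei 3.67 ± 0.19). Replicate 4 of the control was far below the rest, with 5 UMIs of *Klf2*, and had the largest share of free RNA and the fewest endothelial nuclei. The same library was also the lowest for *Klf2* in fibroblast (45.3 CPM), mural (49.9 CPM), myeloid (34.5 CPM) and astrocyte nuclei (4.00 CPM). It was not the lowest in OL (11.1 CPM) or OPC nuclei (9.11 CPM), and the cause was not tested. *Klf4* (2.30 ± 0.22), the nitric oxide synthase *Nos3* (4.08 ± 0.22) and the sphingosine phosphate receptor *S1pr1* (2.58 ± 0.15) were higher. *Trpv4*, *Pkd2*, *Kcnj2* and *Gnaq* were not called.

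Fibroblast nuclei, the other stromal class, were compared next (1730 nuclei with at least 3 of the 6 fibroblast genes and no other gate). Of 10623 genes, 1510 (14.2%) were higher and 1321 (12.4%) lower in endothelial nuclei. All 24 pan-endothelial genes were higher (median 6.01), as were 18 of 20 barrier carriers, with 1 lower. Of the Wnt genes 8 of 16 were higher and none lower, of 9 tested Notch genes 4 were higher and 2 lower, and of 13 basement membrane genes 5 were higher and 3 lower (median -0.07). The lowest adjusted p outside the gates belonged to *Gm5127*, a gene on chromosome X without a known role (46.2 to 845 CPM against 0 to 1.82 CPM, log2 difference 8.39 ± 0.29), *Egfl7*, *Mecom*, *Cyyr1* and *Slc7a5* (74.0 to 337 CPM against 1.78 to 7.62 CPM, 5.40 ± 0.20). Lower were the transcription factor *Foxp2* (-1.96 ± 0.17), *Gm27151* (-2.23 ± 0.19), the collagen receptor *Mrc2* (-1.72 ± 0.15) and the transcriptional coactivators *Eya2* (-1.94 ± 0.18) and *Eya1* (-1.81 ± 0.17), each lower in 8 of 8 libraries without overlap. The strict set gave 1128 higher and 2136 lower genes, and the endothelial nuclei with fibroblast genes are in the main sums. *Piezo2* was lower in endothelial than in fibroblast nuclei (-1.80 ± 0.26).

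Mural nuclei, pericytes and smooth muscle cells, could be compared in 7 libraries with 6 to 17 mural nuclei each. Of 89 mural nuclei in all, 37 also carried at least 3 of the endothelial rule genes, and the mural sums of the 7 libraries held *Cldn5* at 928 ± 441 CPM and *Flt1* at 2146 ± 517 CPM (SD, n = 7). The endothelial sums of all 8 libraries held 896 ± 289 CPM and 1891 ± 382 CPM. Both are rule genes, and the values are a description. Of 2806 genes, 206 (7.34%) were higher and 188 (6.70%) lower in endothelial nuclei, and a fit without the library block, which kept 1379 genes, called 64 and 91. Of the pan-endothelial genes 19 of 24 were tested and 2 were higher (median 0.46). Lower, in all 7 libraries and without overlap, were *Atp13a5* (log2 difference -4.98 ± 0.39), a pericyte gene, *Carmn* (-4.32 ± 0.33), a noncoding RNA of smooth muscle, *Pde8b* (-4.11 ± 0.30) and *Dlc1* (-3.26 ± 0.23). The 5 genes highest in rank in the other direction were *Trpm3* (4.17 ± 0.42), *Ctnnd2* (4.70 ± 0.59), *Nrxn3* (4.12 ± 0.55), *Celf2* (2.64 ± 0.37) and *Ptgds* (1.79 ± 0.25). *Trpm3* stood at 14541 CPM in fibroblast nuclei. In the strict set *Trpm3* (-0.01 ± 0.39), *Celf2* (0.81 ± 0.49, adjusted p = 0.30) and *Ptgds* (0.29 ± 0.22, adjusted p = 0.42) were not called, and *Ctnnd2* and *Nrxn3* were not tested there.

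To look along the vascular tree, each endothelial nucleus was put in the arterial, capillary or venous group by the list with most detected genes of 10 each, with at least 2 and no tie. This gave 142 capillary, 113 venous and 42 arterial nuclei, and 67 were left without a group. The arterial group was uneven, with 17 of its nuclei in control replicate 3. Capillary nuclei were 54.1%, 51.6%, 25.4% and 54.5% of the endothelial nuclei in control replicates 1 to 4 and 29.4%, 40.4%, 50.0% and 34.1% in cKO replicates 10 to 13. The means were 46.4% ± 14.1 and 38.5% ± 8.90 (SD, n = 4 each, exact permutation test, two-sided, p = 0.343). For venous nuclei they were 27.1% ± 9.09 and 32.1% ± 13.7 (exact p = 0.6), where the difference of 4.95 percentage points became -1.03 without cKO replicate 10, and for arterial nuclei 11.9% ± 10 and 8.59% ± 2.03 (exact p = 0.657), where the difference of -3.32 percentage points became 1.16 without control replicate 3. With nuclei thinned to 1000 UMIs, which left 122 without a group, the differences were -3.68 for capillary, 10.2 for venous and -3.82 for arterial nuclei (exact p = 0.686, 0.114 and 0.457). Each adjusted p over the 3 groups before thinning was 0.657, and the libraries of both groups overlapped in each. For capillary nuclei the overlap rested on control replicate 3, without which the difference of -7.93 percentage points became -14.9. As a description, the arterial nuclei held *Mgp*, a matrix protein of large vessels, at 4753 CPM over all libraries, *Gkn3* at 681 CPM and the kinase *Bmx* at 550 CPM. Such values pool the UMIs of all 42 nuclei, so large nuclei weigh more. The 2 arterial nuclei of cKO replicate 12 had a median of 19956.5 UMIs, against 2328.5 over the arterial group.

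Capillary and venous nuclei were then compared in the 7 libraries with at least 5 of each (130 against 110 nuclei). Of 2610 genes, 21 (0.805%) were higher and 32 (1.23%) lower in capillary nuclei. Genes of the 3 lists sorted the nuclei, so part of these calls was fixed by the sorting. Outside the lists 2591 genes were tested, 16 were higher and 27 lower, and the results that follow are from these. *Slco1c1* ranged from 233 to 1342 CPM with a median of 781 CPM in capillary nuclei and from 0 to 158 CPM with a median of 64.5 CPM in venous nuclei. The ranges did not overlap (log2 difference 3.47 ± 0.34, adjusted p = 1.3e-05). *Rapgef4*, an exchange factor that responds to cyclic AMP, was higher without overlap (2.70 ± 0.37, adjusted p = 0.00037), and so was the extracellular matrix gene *Hmcn1* (2.82 ± 0.41). The zinc transporter *Slc39a10* (2.15 ± 0.30) and the insulin-like growth factor receptor *Igf1r* (1.49 ± 0.21, with 586 to 2081 against 416 to 634 CPM) were higher in 7 of 7 libraries with ranges that overlapped. As a description over all nuclei, *Slco1c1* (530 CPM, 707 CPM in capillary) and *Rapgef4* (282 and 303 CPM) were also present in arterial nuclei. *Hmcn1* (91.7 and 328 CPM), *Slc39a10* (157 and 428 CPM) and *Igf1r* (504 and 1387 CPM) were lower there. The arterial values are pooled UMIs and lean on the large nuclei of cKO replicate 12.

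On the venous side, *Prkg1*, the cyclic GMP dependent kinase, ranged from 2204 to 2991 CPM around 2533 CPM, against 431 to 1203 CPM in capillary nuclei (log2 difference -1.68 ± 0.20, adjusted p = 0.00014), without overlap. *Mctp1* (-4.05 ± 0.50) also did not overlap, with 295 to 741 CPM against 0 to 185 CPM. *Eln*, elastin of the vessel wall (-2.31 ± 0.32), the adhesion GPCR *Adgrg6* (-1.93 ± 0.29) and *Gm5127* (-3.38 ± 0.51) were higher in venous nuclei in 7 of 7 libraries. Arterial nuclei were not in this test. As a description over all nuclei, *Eln* was highest in arterial nuclei (1061 CPM, 350 CPM in venous), and *Prkg1* was also high there (2147 and 2548 CPM). *Mctp1* (91.7 and 518 CPM), *Adgrg6* (65.5 and 350 CPM) and *Gm5127* (0 and 780 CPM) were low in arterial nuclei. Pooled arterial values lean on the large nuclei of cKO replicate 12, and their spread between libraries is not given. The rule gene *Vwf* stood at 274 CPM in capillary and 1712 CPM in venous nuclei on average, which is given as a description. Of the tested barrier carriers outside the zone lists, *Slco1c1* was called and *Slc2a1* (-0.19 ± 0.21), *Abcb1a* (0.45 ± 0.20), *Slco1a4* (0.48 ± 0.19), *Abcg2*, *Abcc4*, *Slc3a2*, *Slc6a6* and *Insr* were not. The carriers *Slc7a5* and *Slc7a1* are in the capillary list and stood, as a description, at 329 and 270 CPM over all capillary nuclei against 81.5 and 50.7 CPM over all venous nuclei. *Piezo1* was higher in venous than in capillary nuclei in 7 of 7 libraries, with 66.5 to 256 against 25.9 to 104 CPM, but did not pass (-0.98 ± 0.41, adjusted p = 0.29). In the strict set 5 libraries and 431 genes could be tested, with 37 higher and 26 lower.

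**Figure D4:**
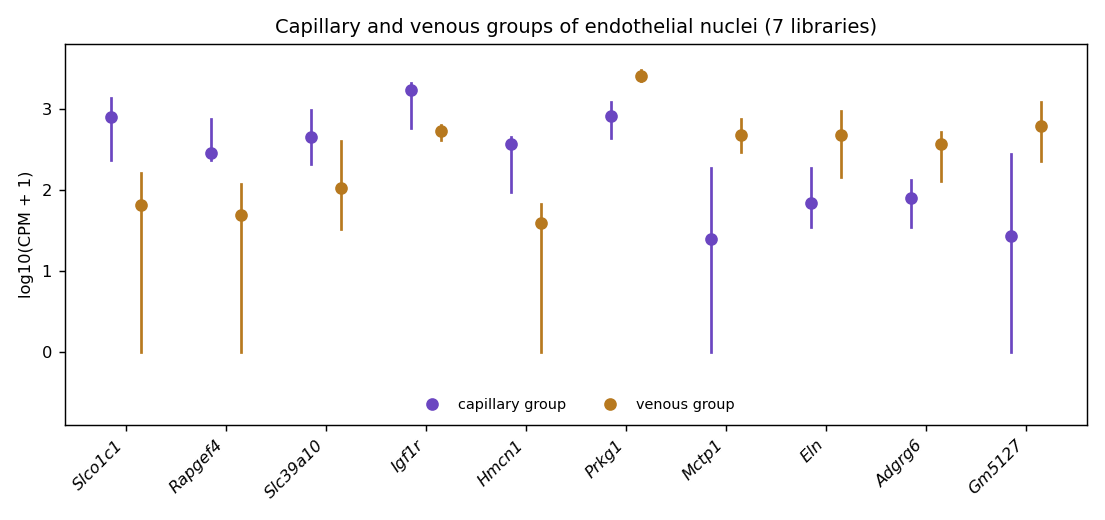
Levels of 10 genes in capillary (purple) and venous (ochre) endothelial nuclei on the scale log10(CPM + 1). Points are medians and lines the range over 7 libraries. *Slco1c1*, *Rapgef4*, *Hmcn1*, *Prkg1* and *Mctp1* have ranges that do not overlap.

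The comparison that the design was built for is that of the genotypes. Summed counts of the endothelial nuclei allowed 3062 genes to be tested between 4 control libraries and 4 libraries labelled cKO, and none was called (0.0%, edgeR). At an unadjusted p under 0.05 there were 168 genes (5.49%), 61 higher and 107 lower in the libraries labelled cKO, and the libraries of the groups did not overlap for 106 genes (3.46%). Of 19613 genes without edgeR's filter on low counts, edgeR called 59. DESeq2, which by default leaves low-count genes out of its adjustment, called 1 of these genes. At the median, the 95% interval of a log2 difference reached 0.62 to either side. In simulated counts of the same depth, 32.4% of changed genes were recovered at 2-fold and 100% at 4-fold. The simulation gave all genes a common spread and scored only changed genes that passed the filter. It therefore cannot tell how many real changes of that size were missed. In the real counts *Erbb4*, *Kcnd2* and *Nlgn1* differed by more than 4-fold and were not called in the main edgeR fit.

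The 10 genes with the smallest unadjusted p are given as not passed. Without a filter on low counts edgeR called each of them but *Ntm*, with adjusted p from 9.1e-08 (*Erbb4*) to 0.042 (*S100a11*). Their edgeR calls thus changed with that filter, though not with it alone. With the filter kept, *Erbb4* was called without control replicate 2 and *Il1rapl1* among nuclei with at least 4 of 6 rule genes. *Erbb4*, a neuregulin receptor (chr1:68071345-69147619), had 238, 205, 486 and 554 CPM in control replicates 1 to 4 and 104, 75, 86.7 and 66.7 CPM in cKO replicates 10 to 13. The groups did not overlap, with a log2 difference of -2.22 ± 0.36 (95% interval -2.99 to -1.44, adjusted p = 0.079), and DESeq2 called it (adjusted p = 0.00134). *Sox6*, a transcription factor of OPCs, had 170, 271, 231 and 80.8 CPM against 47.5, 75, 19.3 and 49.1 CPM (-1.89 ± 0.37, adjusted p = 0.23). Nuclei with OPC markers were 13 of the 157 endothelial nuclei of the control libraries and 5 of the 207 of the libraries labelled cKO, and the summed OPC markers ranged from 277 to 981 CPM and from 161 to 450 CPM. Their part in these differences was not tested.

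*Ctnnd2* (-1.22 ± 0.27), *Il1rapl1* (-1.44 ± 0.34), *Ntm* (-1.09 ± 0.27), *Kcnd2* (-2.21 ± 0.55) and *Nlgn1* (-2.12 ± 0.53), genes of synapses and of neural cell adhesion, also had lower values in the libraries labelled cKO, with adjusted p of 0.33 to 0.40. *Il1rapl1* was called among nuclei with at least 4 of the 6 rule genes (-1.99, adjusted p = 0.026 with edgeR). Without control replicate 4 the log2 difference of *Nlgn1* was -1.22. *Nlgn1* had 319, 308, 341 and 1419 CPM in the control libraries, and neuron markers were highest in replicate 4 of the control (889 CPM over 6 genes, against 18.7 to 184 CPM in the other control libraries). *Ext1*, an enzyme of heparan sulphate synthesis, had 319, 280, 477 and 323 CPM in the control and 171, 150, 173 and 137 CPM in the libraries labelled cKO (-1.20 ± 0.24, adjusted p = 0.24). Higher values were found for *H2-T23*, a nonclassical MHC class I gene, with 13.6, 103, 35.5 and 34.6 against 199, 142, 145 and 133 CPM (1.81 ± 0.40, adjusted p = 0.33), and for *S100a11*, a calcium-binding protein (1.19 ± 0.30, adjusted p = 0.40). For *H2-T23* the log2 difference in all other nuclei was 0.64 (adjusted p = 0.80).

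Beside 5.49% of all genes, an unadjusted p under 0.05 was found for 2 of 9 tested genes of the leukocyte adhesion list (median log2 difference 0.55) and for 2 of 3 tested OPC genes (median -1.69). Erythrocyte genes were lower in value in the libraries labelled cKO, with an unadjusted p under 0.05 for 4 of 4 tested (median -1.08, 5.49% of all genes), and ranged in sum from 2400 to 7616 CPM in the control and from 1244 to 3775 CPM in the libraries labelled cKO. *Hbb-bs* and *Hba-a1* were called in the strict set (adjusted p = 0.00265 and 0.00444, edgeR) and after thinning to 1000 UMIs (0.0112 and 0.0186).

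In the main edgeR fit with its filter, no gene of the endothelial lists was called by genotype, as none was among all 3062 genes. Of these 3062 genes 5.49% had an unadjusted p under 0.05. Of 21 tested pan-endothelial genes none had an unadjusted p under 0.05 (median log2 difference 0.11, range -0.52 to 0.65), nor did any of 15 barrier carriers (median 0.14), 12 junction genes (median 0.12) or 7 Wnt genes (median 0.03), beside a median of -0.002 over all genes. The 95% intervals of the barrier carriers lay between -0.81 and 1.31. *Slc2a1* had 543, 598, 326 and 300 CPM in the control and 940, 500, 530 and 575 CPM in the libraries labelled cKO (0.53 ± 0.28, unadjusted p = 0.076 with edgeR). *Piezo1* differed by 0.22 ± 0.34 (95% interval -0.51 to 0.94, adjusted p = 0.98), and the libraries overlapped. Without control replicate 3 the sign of that value turned (-0.09). *Vegfc*, a ligand of Flt4, was not called (0.98 ± 0.31, adjusted p = 0.79 with edgeR) although the groups did not overlap, with 34.6 to 116 CPM in the control and 129 to 222 CPM in the libraries labelled cKO.

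**Figure D5:**
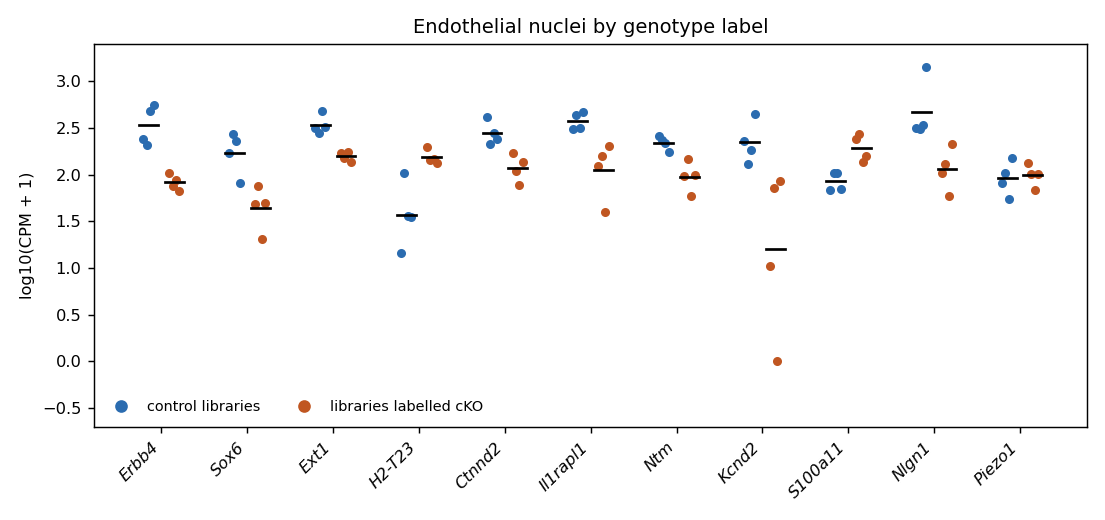
The 10 genes with the smallest unadjusted p between the groups, and *Piezo1*, on the scale log10(CPM + 1) in endothelial nuclei. Points are libraries and lines are means of the plotted values. None was called in the main edgeR fit with its filter, and the groups of *Piezo1* overlap. DESeq2 called *Erbb4*, and edgeR without the filter called each of the 10 genes but *Ntm*.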

How the data were processed

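Libraries of optic nerve nuclei were made by the authors with a 3′ droplet kit. UMIs were counted per gene and barcode with Cell Ranger 7.0.0 on GRCm39, per the labels. The deposited values are whole-number counts for every barcode, without normalization, and the later steps of the methods (removal of ambient RNA, doublets and low-quality nuclei) are not part of them and were not repeated. A library held 39628926 to 56541132 UMIs. Members and gene lists were chosen with earlier results of these data known.

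Counts were summed per library, the replicate, for endothelial nuclei and each other class. CPM are relative to all UMIs of such a sum. A class held nuclei with at least 3 of 6 markers of 1 type, and OL nuclei at least 3 *St18* UMIs. Sums were tested with edgeR 4.0.16 (TMM, filterByExpr, glmQLFTest, Benjamini-Hochberg adjustment), with the library as a block within libraries, checked on simulated data. DESeq2 1.42.0 was the alternative. Shares were compared with exact permutation tests in scipy 1.17.1. Free RNA was estimated from barcodes of 10 to 100 UMIs and, chosen after seeing the data because few barcodes lay there, of 100 to 400 UMIs. It was subtracted from the endothelial sums only. The strict set in the mural, fibroblast and capillary comparisons was also chosen after seeing the data. Thinning drew 1000 UMIs per nucleus.

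Named genes were the 20 called higher in every library with the smallest adjusted p (other nuclei, outside the rule), the 5 called per direction with the smallest adjusted p (mural and fibroblast nuclei outside the gates, capillary against venous outside the zone lists), the 10 with the smallest unadjusted p (genotype), members of the lists, and *Piezo1*, *Piezo2* and *Olig2*. Some genes that this rule names are not reported here. Positions come from GENCODE M39, matched by identifier for 98.5% of 33696 genes. Alternatives changed normalization, filter, tool, member rule, block, free RNA, depth and the libraries included.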

Additional observations from a re-analysis of the deposited data

Results flagged for a closer look

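Some libraries stood apart from the other 3 of their group by Dixon's test (5 of 50 groups tested), which chance gives in about 1 of 20 groups. In control replicate 3, 25.4% of endothelial nuclei were capillary, against 51.6% to 54.5% in the other control libraries. In control replicate 4, 13.6% were venous, against 29.7% to 32.8%. *Nlgn1* had 1419 CPM in control replicate 4, with 341 CPM next to it. *Tek* in cKO replicate 10 (399 CPM, next 292 CPM) and *H2-T23* in the same library (199 CPM, next 145 CPM) were only just past the critical value.

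Some rule genes were also detected in fibroblast nuclei, which the rule does not take as endothelial. A *Cdh5* UMI was found in 38.4% of fibroblast nuclei (13.4% after thinning to 1000 UMIs), against 2.04% of astrocyte and 3.15% of OL nuclei. For *Flt1* the shares were 19.6% (8.03% after thinning), 1.23% and 2.74%. *Cldn5* was found in 1.73% of fibroblast nuclei.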

How the results depend on the processing

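No paired analysis was possible because the genotype groups share no replicate number. Within libraries, fits without the replicate block, whose filter also kept fewer genes, gave 64 higher and 91 lower of 1379 genes against mural nuclei, 2243 and 3588 of 16540 against other nuclei, and 16 and 23 of 1237 between capillary and venous nuclei. DESeq2 was run without edgeR's filter and with its own default handling of low counts, so tool and genes tested changed together. By genotype, none called became 10 higher and 49 lower without a filter, 1 lower with DESeq2, 4 lower with at least 4 of 6 rule genes, 2 lower in the strict set, 2 lower after thinning, 1 in each direction with free RNA of 10 to 100 UMIs subtracted, and 0 to 1 with a library left out (*Erbb4* without control replicate 2). Against other nuclei, 1214 were higher after thinning, and 1233 higher and 1904 lower in control libraries alone. Against mural nuclei, 525 were higher without a filter, 98 with DESeq2 and 119 in the strict set. Against fibroblast nuclei, 2136 were lower in the strict set. Between capillary and venous nuclei, 49 were higher without a filter, 40 higher and 62 lower with DESeq2, 37 higher in the strict set, and leaving out a library gave 15 to 31 higher and 20 to 31 lower (20 without control replicate 1). The cause of these shifts was not tested, beyond the smaller number of nuclei or genes where a setting removes them.

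The difference in endothelial share turned to -0.0127 percentage points at 500 UMIs, -0.104 at 2000 UMIs, -0.0140 with at least 4 rule genes and -0.0354 with at least 2, and ran from -0.141 (without cKO replicate 13) to 0.201 (without control replicate 3). Leaving out a library moved the arterial difference from -6.22 to 1.16, the capillary one from -14.9 to -4.92 and the venous one from -1.03 to 9.69. *Piezo1* by genotype ran from -0.0926 to 0.473 with a library left out and was -0.0995 with at least 2 rule genes. *Trpm3* against mural nuclei was -0.0056 in the strict set. Of 396 fits of genes named against other nuclei, 395 kept their call and direction, as did 130 of 130 against fibroblast and 116 of 116 between capillary and venous nuclei. Against mural nuclei 113 of 116 did, with 2 calls lost and 1 direction turned. By genotype 147 of 161 did, with 12 calls gained and 2 directions turned, both of *Piezo1*. The genotype sums held 22 to 88 nuclei a library, and single nuclei could hold a large part of a sum. The largest nucleus had 31414 of 103781 UMIs in cKO replicate 12 and 47043 of 337640 in control replicate 3. It had 18473 of 107073 in control replicate 2 and 13875 of 86655 in control replicate 4. Fits without these nuclei were not run.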
